A study of Mus musculus with 6 samples.

Results

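Natriuretic peptide receptors, the enzymes that act on cGMP and the ATP-driven calcium pumps are described here as 10 genes out of the 21899 in the count table: the receptors Npr1, Npr2 and Npr3, the cGMP-dependent kinases Prkg1 and Prkg2, the phosphodiesterases Pde3a and Pde5a, and the pumps Atp2b1, Atp2b4 and Atp2a2. The genes were selected on their known roles with the differences between the groups already in view, so their values in this comparison are a description and carry no test of their own. All 10 genes were found in the table by their Ensembl identifiers. The cells were BV2, an immortalized line of mouse microglia. In the sh-TonEBP group (3 libraries) the cells carried a lentiviral shRNA against TonEBP, a transcription factor encoded by the gene Nfat5, and in the sh-NC group (3 libraries) they carried a scrambled shRNA delivered in the same way, both followed by puromycin selection. The sources used here do not say whether each line was a pool or a clone, or whether the libraries are from cultures grown apart.

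Natriuretic peptides bind receptors on the cell surface, of which Npr1 and Npr2 carry a guanylyl cyclase domain and make cGMP inside the cell, whereas Npr3 lacks the cyclase and removes the peptides from outside. cGMP activates the kinases encoded by Prkg1 and Prkg2, and phosphodiesterases such as the one encoded by Pde5a break it down. In smooth muscle this cascade relaxes the cell, partly by lowering cytosolic calcium, which is also removed by pumps in the plasma membrane (the Atp2b genes) and in the endoplasmic reticulum (the Atp2a genes).

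Poly(A) RNA was sequenced, and the libraries held 13621188 to 16140042 counts in sh-TonEBP and 15288505 to 15555269 counts in sh-NC. Levels are given in CPM, the counts of a library relative to its TMM-scaled total, and by counting error alone 0 counts in a library allow a level of 0.186 to 0.220 CPM, depending on the library. Nfat5 had 3894, 4631 and 5257 counts in the sh-TonEBP libraries and 9641, 11640 and 9652 counts in the sh-NC libraries, so it was lower in every sh-TonEBP library. Its log2 fold change was -1.14 (SE 0.16), and -0.36 once a trend of fold change on transcript length and GC content was removed. Of 12 microglial markers, 9 were under 1 CPM in every library, P2ry12 and C1qa had 0 counts throughout, and the markers summed to 64.8 to 81.6 CPM in sh-TonEBP and 44.3 to 52.6 CPM in sh-NC. The defining markers of the labelled cell type were thus mostly absent. Because these genes are known from muscle and connective tissue, markers of those cells were read as well. The 10 fibroblast markers summed to 1570 to 1730 CPM in sh-TonEBP and 472 to 514 CPM in sh-NC, mostly Col3a1. Of these, 6 of the 7 tested were higher, and Col1a2 did not pass (log2 fold change -0.59). Col1a1 and Dcn passed the filter on low counts only through their sh-TonEBP libraries. Dcn had 1, 4 and 1 counts in sh-NC. The filter thus favoured a higher call for them, and nothing is read from the 6 of 7. Fap and Postn were under 1 CPM in every library and Thy1 had 0 counts throughout. For all the marker lists, 26.3% of all genes tested were called higher and 26.2% lower. The 8 smooth muscle markers summed to 85.8 to 117 CPM in sh-TonEBP and 195 to 220 CPM in sh-NC, mostly Smtn, which was the 1 lower gene. Of the 5 tested, 4 were higher, and Myh11, Cnn1 and Tagln were under 1 CPM in every library. Acta2, Lmod1 and Actg2 passed the filter on low counts only through their sh-TonEBP libraries. Actg2, for example, had 3, 4 and 4 counts in sh-NC. The filter thus favoured a higher call for them, and nothing is read from the 4 of 5. Endothelial markers (9 genes) summed to 19.3 to 29.4 CPM in sh-TonEBP and 11.4 to 16.1 CPM in sh-NC (1 of 3 tested higher; Tek, Cldn5 and Emcn under 1 CPM in every library), and epithelial markers (7 genes) to 1210 to 1520 CPM in sh-TonEBP and 618 to 752 CPM in sh-NC (1 of 2 tested higher, 5 under 1 CPM in every library). The part of these shifts in the values that follow was not tested, and in bulk RNA fewer cells of a type and less RNA per cell cannot be told apart.

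Of the 10 genes, 7 passed the filter on low counts. Npr1 and Atp2b4 were higher in sh-TonEBP at an adjusted p under 0.05 in edgeR, a call made in that direction for 26.3% of the 11943 genes tested. Prkg2, Pde5a and Npr2 were lower, as were 26.2% of the genes tested. Atp2b1 and Atp2a2 did not pass. The libraries of the groups did not overlap for 5 of the 7 genes, against 62.7% of all genes tested, and nothing is read from these counts, since the same comparison was known when the genes were chosen. The median log2 fold change of the 7 genes was -0.15, beside 0.0007 for all genes tested.

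**Figure D1:**
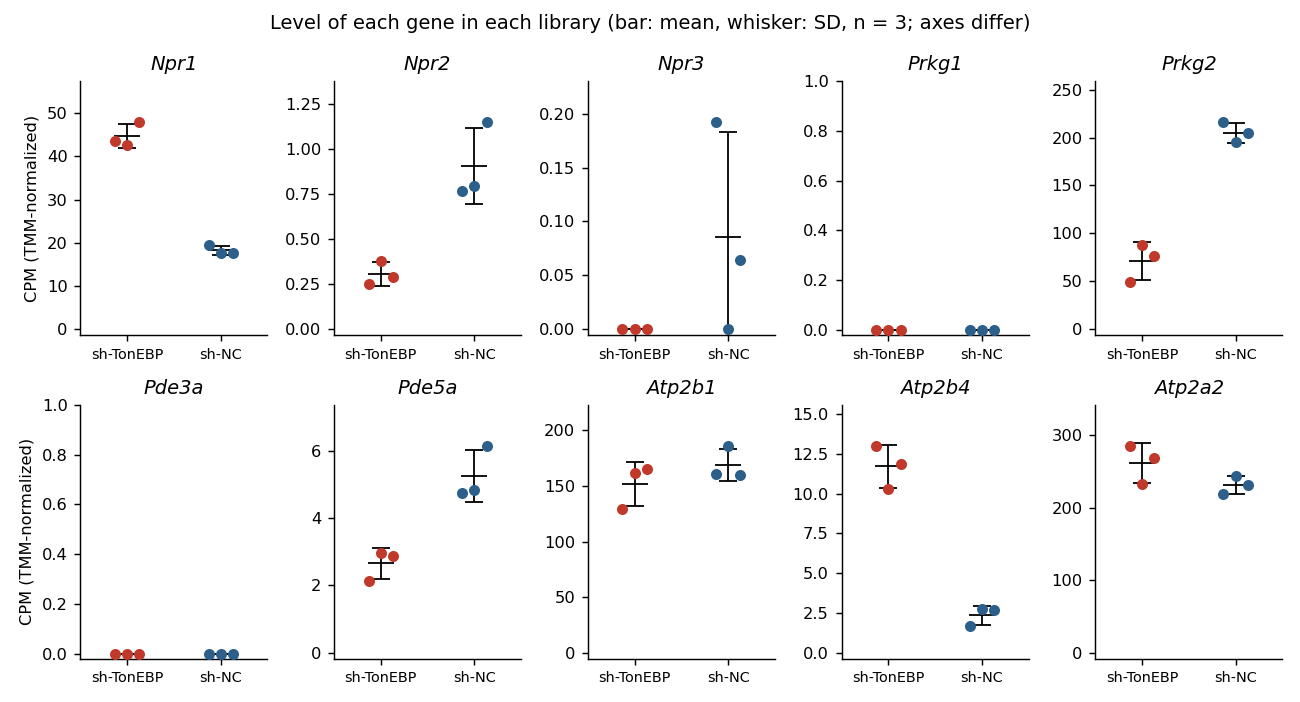
Level of each of the 10 genes in CPM (linear axes that differ between panels), with sh-TonEBP on the left and sh-NC on the right; points are libraries, the horizontal bar is the mean and the whisker the SD (n = 3). Npr1 and Atp2b4 lie above their sh-NC libraries in every sh-TonEBP library, Npr2, Prkg2 and Pde5a lie below, Atp2b1 and Atp2a2 overlap, and Prkg1 and Pde3a are at 0 throughout.

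Npr1 (ENSMUSG00000027931, chromosome 3) encodes guanylyl cyclase A, the receptor of the atrial and brain natriuretic peptides, and was the main natriuretic receptor of these cells. It had 695, 679 and 665 counts (43.6, 42.7 and 47.9 CPM) in the sh-TonEBP libraries, against 304, 266 and 274 counts (19.5, 17.6 and 17.5 CPM) in the sh-NC libraries. Every sh-TonEBP library was higher than every sh-NC library, and the libraries of each group lay close together. The mean was 44.7 ± 2.78 CPM in sh-TonEBP and 18.2 ± 1.11 CPM in sh-NC (SD, n = 3 each), which is 2.45-fold higher (log2 fold change 1.29, SE 0.13). The antisense gene Gm16048 shares 11.7% of the exon bases of Npr1 on the opposite strand, and Gm12473 shares 5.7% of those of Npr2. Since the sources used here name no strand setting for the counting, reads of such a pair cannot be told apart.

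Npr2 (ENSMUSG00000028469, chromosome 4) encodes guanylyl cyclase B, the receptor of C-type natriuretic peptide, and was near the limit of detection. It had 4, 6 and 4 counts in the sh-TonEBP libraries, against 12, 12 and 18 counts in the sh-NC libraries. The groups did not overlap, but the gene passed the filter through its sh-NC libraries alone, and the whole difference rests on 14 counts in sh-TonEBP and 42 counts in sh-NC. Its level averaged 0.305 ± 0.0651 CPM in sh-TonEBP and 0.905 ± 0.213 CPM in sh-NC (SD, n = 3 each; log2 fold change -1.54, SE 0.48). The call was lost with DESeq2, without the first sh-TonEBP library (log2 fold change -1.41) and without the third sh-NC library (log2 fold change -1.33). Npr3 (ENSMUSG00000022206, chromosome 15), the clearance receptor without a cyclase domain, had 0 counts in all sh-TonEBP libraries and 3, 0 and 1 counts in the sh-NC libraries. It was too low to be tested, and 0 counts over the sh-TonEBP group allow a level of up to 0.0654 CPM.

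The promoters of Npr1 and Npr2 are shown because they are the receptors that make cGMP. The sequences are from RefSeq on GRCm38.p6, an older build than that of the count table, and run from 250 bases before to 50 bases after the gene's start. Of the 10 genes, 7 had an entry, and Prkg2, Pde3a and Atp2a2 had none. The letters TGGAAA, the core of the tonicity-responsive element to which TonEBP binds, and GGGCGG, a GC box, were searched on both strands, and matches are in capitals. TGGAAA was present in 21.4% and GGGCGG in 35.7% of 32851 RefSeq promoters of the same length. The Npr1 promoter lies at chr3:90465817-90466116 on the minus strand and the Npr2 promoter at chr4:43631685-43631984 on the plus strand.
Npr1: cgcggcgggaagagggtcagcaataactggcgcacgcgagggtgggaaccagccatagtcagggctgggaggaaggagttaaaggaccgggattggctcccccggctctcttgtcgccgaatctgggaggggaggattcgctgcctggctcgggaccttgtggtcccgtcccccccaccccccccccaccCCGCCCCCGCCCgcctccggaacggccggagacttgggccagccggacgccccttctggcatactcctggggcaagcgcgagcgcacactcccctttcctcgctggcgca
Npr2: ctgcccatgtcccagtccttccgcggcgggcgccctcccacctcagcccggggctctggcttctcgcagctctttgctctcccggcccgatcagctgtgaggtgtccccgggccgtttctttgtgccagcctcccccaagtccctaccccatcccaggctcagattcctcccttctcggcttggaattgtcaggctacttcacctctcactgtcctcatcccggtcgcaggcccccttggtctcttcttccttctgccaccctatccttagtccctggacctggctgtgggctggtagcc
Neither window held TGGAAA. The Npr1 window (69.7% G and C) held 2 adjacent GC boxes, read on the opposite strand and starting 60 and 54 bases before the gene's start, and the Npr2 window (64.0% G and C) held none. A match of letters is a description of the sequence and not a binding site.

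Among the membrane guanylyl cyclases, the share of each gene was taken from CPM per kb of exons, so that genes of different length can be compared. Npr1 made up 97.4, 97.2 and 97.2% of the family's summed level in the sh-TonEBP libraries, against 81.0, 78.0 and 82.9% in the sh-NC libraries. Npr1 was thus the leading member in all 6 libraries, and its share was larger in every sh-TonEBP library. The rest was mostly Gucy2g, the membrane cyclase G of mice, at 2.05 ± 0.112% in sh-TonEBP and 14.6 ± 3.05% in sh-NC, while Npr2 held 0.685 ± 0.17% in sh-TonEBP and 4.15 ± 1.25% in sh-NC (SD, n = 3 each).

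**Figure D2:**
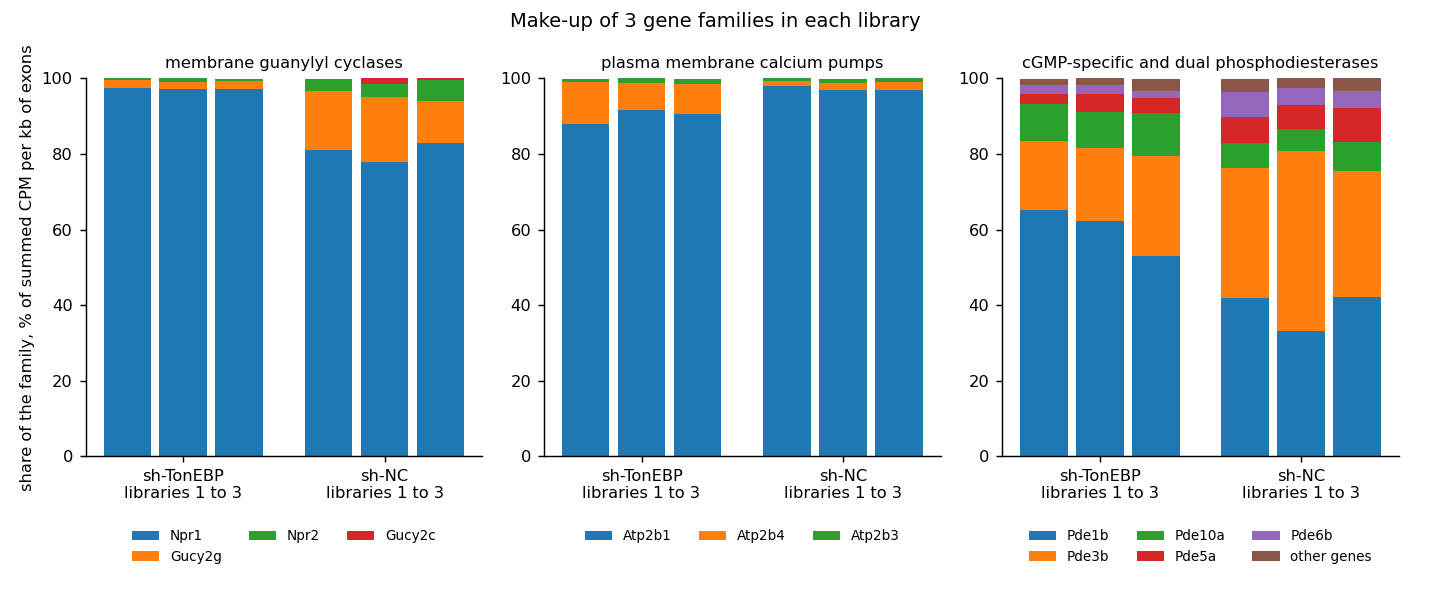
Share of each gene in the summed CPM per kb of exons of its family, in percent, in each library, with the 3 sh-TonEBP libraries left of the 3 sh-NC libraries; each colour is a gene. Npr1 fills more than 97% of the membrane guanylyl cyclases in sh-TonEBP, Atp2b4 takes 7.22 to 11% of the plasma membrane calcium pumps in sh-TonEBP and 1.26 to 2.02% in sh-NC, and Pde5a is a minor part of the cGMP-hydrolysing phosphodiesterases throughout.

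The cGMP-dependent kinase of these cells was the type II enzyme. Prkg2 (ENSMUSG00000029334, chromosome 5) encodes this kinase, which is anchored to membranes and is known from intestinal secretion and bone growth. It had 777, 1397 and 1059 counts (48.7, 87.9 and 76.3 CPM) in the sh-TonEBP libraries, against 3373, 2943 and 3212 counts (216, 195 and 205 CPM) in the sh-NC libraries. All sh-TonEBP libraries lay below all sh-NC libraries, and within sh-TonEBP the highest library was 1.8 times the lowest. The mean was 70.9 ± 20.1 CPM in sh-TonEBP and 206 ± 10.6 CPM in sh-NC (SD, n = 3 each), which is 2.90-fold lower (log2 fold change -1.54, SE 0.18). Prkg1 (ENSMUSG00000052920, chromosome 19), the soluble kinase of smooth muscle and platelets, had 0 counts in all 6 libraries. Set against Prkg2, 0 counts of Prkg1 allow up to 0.0928% of the Prkg2 counts in sh-TonEBP (3233 counts) and up to 0.0315% in sh-NC (9528 counts).

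Of the phosphodiesterases, Pde5a (ENSMUSG00000053965, chromosome 3) hydrolyses cGMP specifically and is the target of sildenafil. Pde5a had 34, 47 and 40 counts (2.13, 2.96 and 2.88 CPM) in the sh-TonEBP libraries, against 74, 73 and 96 counts (4.75, 4.84 and 6.14 CPM) in the sh-NC libraries. The groups did not overlap. The mean was 2.66 ± 0.456 CPM in sh-TonEBP and 5.24 ± 0.777 CPM in sh-NC (SD, n = 3 each), which is 1.97-fold lower (log2 fold change -0.98, SE 0.24). Its log2 fold change was -0.60 after removal of the trend on length and GC content, and it missed the study's cutoff of an absolute log2 fold change above 1. Pde3a (ENSMUSG00000041741, chromosome 6), whose hydrolysis of cAMP is inhibited by cGMP, had 0 counts in all 6 libraries. Pde3a and its relative Pde3b were counted here with the enzymes that hydrolyse both cGMP and cAMP, and the shares below depend on that.

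The promoter of Pde5a is printed because it is the only one of the called genes with an entry whose window held the TGGAAA letters. It lies at chr3:122728908-122729207 on the plus strand (66.3% G and C).
Pde5a: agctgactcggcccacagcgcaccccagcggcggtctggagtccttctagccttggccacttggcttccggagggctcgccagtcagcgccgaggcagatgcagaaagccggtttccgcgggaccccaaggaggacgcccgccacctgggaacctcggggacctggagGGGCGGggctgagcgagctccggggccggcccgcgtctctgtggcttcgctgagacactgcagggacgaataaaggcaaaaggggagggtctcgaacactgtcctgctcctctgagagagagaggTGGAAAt
TGGAAA started 44 bases into the transcribed part, and a GC box started 82 bases before the gene's start, with no overlap between them. The same letters also lay in a window of Prkg1, 162 bases before the start, and in a window of Atp2b1. Prkg1 had 0 counts in every library and Atp2b1 did not pass the test.

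Pde5a was a minor part of the phosphodiesterases that can hydrolyse cGMP. Its share of their summed CPM per kb was 2.69, 4.61 and 4.01% in the sh-TonEBP libraries, against 6.92, 6.30 and 8.91% in the sh-NC libraries, which did not overlap. The enzymes specific for cGMP summed to 0.589 ± 0.064 CPM per kb in sh-TonEBP and 1.12 ± 0.0849 CPM per kb in sh-NC, and those that hydrolyse both cGMP and cAMP to 6.71 ± 0.789 CPM per kb in sh-TonEBP and 6.15 ± 0.562 CPM per kb in sh-NC (SD, n = 3 each). Pde1b, an enzyme for both nucleotides that is activated by calcium and calmodulin, held 60.2 ± 6.29% of the cGMP-hydrolysing level in sh-TonEBP and 39.1 ± 5.16% in sh-NC, and Pde3b, the relative of Pde3a, held 21.4 ± 4.44% in sh-TonEBP and 38.4 ± 7.91% in sh-NC.

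Among the calcium pumps, the strongest difference was in Atp2b4. Atp2b4 (ENSMUSG00000026463, chromosome 1) encodes PMCA4, a plasma membrane pump activated by calmodulin, and had 208, 163 and 165 counts (13, 10.3 and 11.9 CPM) in the sh-TonEBP libraries, against 26, 41 and 42 counts (1.67, 2.72 and 2.69 CPM) in the sh-NC libraries. The lowest sh-TonEBP library was far above the highest sh-NC library. The mean was 11.7 ± 1.40 CPM in sh-TonEBP and 2.36 ± 0.598 CPM in sh-NC (SD, n = 3 each), which is 4.96-fold higher (log2 fold change 2.31, SE 0.23), the largest change of the 7 genes tested. Its RefSeq promoter is shown because of this change. It lies at chr1:133753698-133753997 on the minus strand, is 47.7% G and C, and held neither of the motifs.
Atp2b4: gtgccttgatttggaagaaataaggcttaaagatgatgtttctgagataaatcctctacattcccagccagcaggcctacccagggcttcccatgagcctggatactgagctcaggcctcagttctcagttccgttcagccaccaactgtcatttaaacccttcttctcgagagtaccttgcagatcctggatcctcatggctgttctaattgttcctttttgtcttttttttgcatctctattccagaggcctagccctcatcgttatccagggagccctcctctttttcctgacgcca

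Atp2b1 (ENSMUSG00000019943, chromosome 10) encodes PMCA1, the plasma membrane pump found in nearly all cells. It had 2059, 2571 and 2291 counts (129, 162 and 165 CPM) in the sh-TonEBP libraries, against 2504, 2806 and 2508 counts (161, 186 and 160 CPM) in the sh-NC libraries. The groups overlapped, and the log2 fold change was -0.15 (SE 0.12). Its sign turned to 0.39 when the trend on transcript length and GC content was removed, so no direction is given. RefSeq lists a pair of start sites for Atp2b1, and TGGAAA lay in the first window only, 196 bases before the start and read on the opposite strand.

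Atp2a2 (ENSMUSG00000029467, chromosome 5) encodes SERCA2, which pumps calcium into the endoplasmic reticulum. It had 4548, 3692 and 3721 counts (285, 232 and 268 CPM) in the sh-TonEBP libraries, against 3419, 3670 and 3614 counts (219, 243 and 231 CPM) in the sh-NC libraries. These values overlapped, with a mean of 262 ± 27.0 CPM in sh-TonEBP and 231 ± 12 CPM in sh-NC (SD, n = 3 each; log2 fold change 0.18, SE 0.11), which did not pass the test, and the log2 fold change was 0.37 with the trend on length and GC content removed. Atp2a2 was nearly the only SERCA pump of these cells, at 99.7 ± 0.0586% of the SERCA level per kb in sh-TonEBP and 99.6 ± 0.128% in sh-NC.

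Within the plasma membrane pumps, Atp2b1 was the main gene at 90.1 ± 1.87% of the summed CPM per kb in sh-TonEBP and 97.3 ± 0.594% in sh-NC. The share of Atp2b4 was 11, 7.22 and 8.10% in the sh-TonEBP libraries, against 1.26, 1.76 and 2.02% in the sh-NC libraries. Atp2b4 was therefore a small part of the pump transcripts even where it was highest. The shares depend on the length used. All annotated exons of Atp2b1 cover 15.22 kb and its longest transcript 7.13 kb, against 12.25 kb and 11.7 kb for Atp2b4. The remainder was Atp2b3, since Atp2b2 had 0 counts in every library.

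Per kb of exons, Atp2a2 was the most abundant of the 10 genes in sh-TonEBP at 43.0 ± 4.43 CPM per kb (SD, n = 3). Prkg2 (13.2 ± 3.75 CPM per kb), Atp2b1 (9.98 ± 1.31 CPM per kb) and Npr1 (9.35 ± 0.582 CPM per kb) followed in sh-TonEBP, and the libraries of these 3 genes overlapped. Atp2b4 at 0.957 ± 0.114, Pde5a at 0.27 ± 0.0464 and Npr2 at 0.0654 ± 0.0139 CPM per kb came next in sh-TonEBP, each apart from the one before. In sh-NC the order differed at the top, where Prkg2 at 38.3 ± 1.97 and Atp2a2 at 38.0 ± 1.98 CPM per kb overlapped, and at the bottom, where Npr2 at 0.194 ± 0.0456 and Atp2b4 at 0.192 ± 0.0488 CPM per kb overlapped. Between them in sh-NC lay Atp2b1 at 11.1 ± 0.972, Npr1 at 3.81 ± 0.232 and Pde5a at 0.533 ± 0.0791 CPM per kb, with no overlap between neighbours. The length used was that of all annotated exons of a gene, 15.22 kb for Atp2b1 and 5.369 kb for Prkg2. Their longest transcripts are 7.13 kb and 4.97 kb, so the order of Prkg2 and Atp2b1 in sh-TonEBP depends on the length used.

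**Figure D3:**
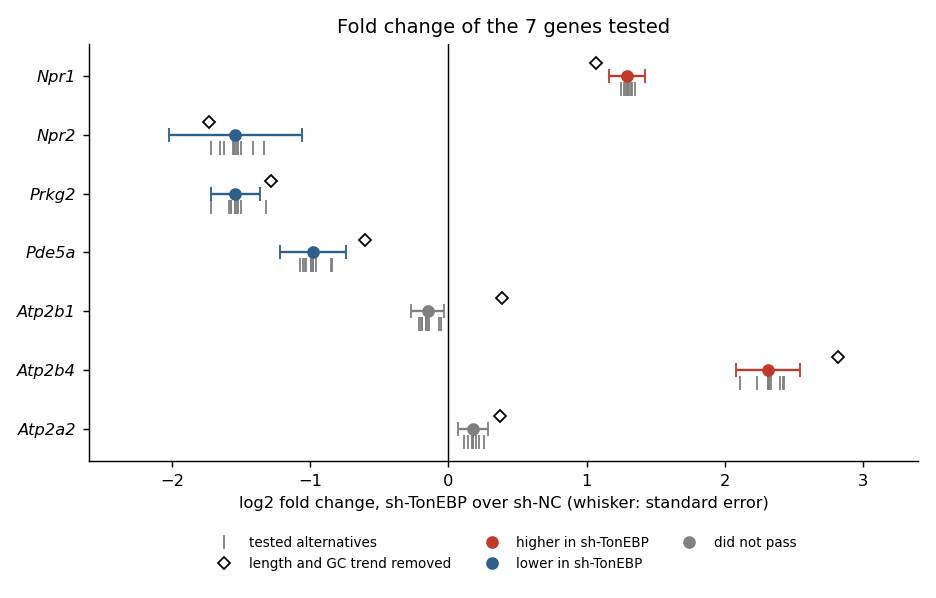
Log2 fold change of sh-TonEBP over sh-NC for the 7 genes tested, with the standard error (derived from the test statistic) as whisker. Grey ticks are the tested alternatives and open diamonds the value with the trend on transcript length and GC content removed. Npr1 stays between 1.25 and 1.35 and Atp2b4 between 2.11 and 2.43 over the ticks, and the diamond of Atp2b1 lies on the other side of 0.

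Transcript length and GC content moved with the fold changes of all genes. Across the 11929 genes tested that had both values, the log2 fold change had a Spearman correlation of -0.31 with transcript length and 0.42 with GC content, given as a description across genes that share the same 6 libraries. The 7 tested members had a median transcript of 5.67 kb, against 3.43 kb for all genes tested. With this trend removed, the log2 fold changes of Npr1 (1.07), Npr2 (-1.73), Prkg2 (-1.28) and Atp2b4 (2.82) kept their signs.

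The other genes of the pathway were read from 9 lists by role. Of 108 such genes, 107 were in the table and 60 were tested, with 23 higher, 10 lower and 27 on neither side of the test, where 26.3% of all genes tested were higher and 26.2% lower. Their median log2 fold change was 0.25. The lists were drawn up with earlier results of these data known. Adjusted p-values of single genes are from edgeR over all 11943 genes.

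The ligands themselves were scarce. Nppb, the brain natriuretic peptide that binds Npr1, had 39, 28 and 21 counts in sh-TonEBP and 50, 45 and 35 counts in sh-NC, with a log2 fold change of -0.55 that did not pass the test (SE 0.29). Nppa and Nppc, the atrial and C-type peptides, had at most 1 count in any library. Of the 9 peptides and processing enzymes, 5 were tested, and 2 were higher. Mme, or neprilysin, which degrades natriuretic peptides, averaged 22.9 ± 7.55 CPM in sh-TonEBP and 7.52 ± 2.36 CPM in sh-NC (SD, n = 3 each; log2 fold change 1.60, SE 0.27, edgeR adjusted p = 0.000816). Its log2 fold change was 2.37 with the trend on length and GC content removed. Furin, a convertase that processes the precursor of brain natriuretic peptide, had a log2 fold change of 0.32 (edgeR adjusted p = 0.0479) and lost its call under 9 of 12 alternatives.

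Nitric oxide is the other route to cGMP, through the soluble guanylyl cyclase. Its subunit Gucy1b1 had 0 counts in all 6 libraries. Of the 9 other guanylyl cyclases, 2 were tested, and Gucy2g was lower at 12, 11 and 12 counts in sh-TonEBP and 48, 47 and 30 counts in sh-NC (log2 fold change -1.81, SE 0.34, edgeR adjusted p = 0.00102). All 3 nitric oxide synthases were tested, and Nos2, the inducible enzyme, was lower at 5.74 ± 1.99 CPM in sh-TonEBP and 33.7 ± 4.42 CPM in sh-NC (SD, n = 3 each; log2 fold change -2.54, SE 0.22, edgeR adjusted p = 8.77e-06).

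Of 22 other genes named as phosphodiesterases, 9 were tested, 4 were higher and 2 were lower, with a median log2 fold change of 0.43. The list includes Pde6d, Pde6g and Pde6h, which were not counted among the enzymes by substrate above. Pde6d was among the 4 higher (log2 fold change 0.46), so these counts and the median are not those of enzymes alone. Pde1b was higher (log2 fold change 0.64, SE 0.16, edgeR adjusted p = 0.0047), and Pde10a, another enzyme for both nucleotides, had a log2 fold change of 0.61 (SE 0.19, and 0.93 with the trend on length and GC content removed), a call that was lost without the third sh-TonEBP library or the first sh-NC library. Pde3b was lower (log2 fold change -0.85, SE 0.21, edgeR adjusted p = 0.00538), and its value was -0.40 with the trend on length and GC content removed. Pde6b, a photoreceptor enzyme specific for cGMP, was lower like Pde5a at 15, 13 and 9 counts in sh-TonEBP and 36, 27 and 25 counts in sh-NC (log2 fold change -1.23), a call that was lost without the first sh-NC library (log2 fold change -1.06).

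**Figure D4:**
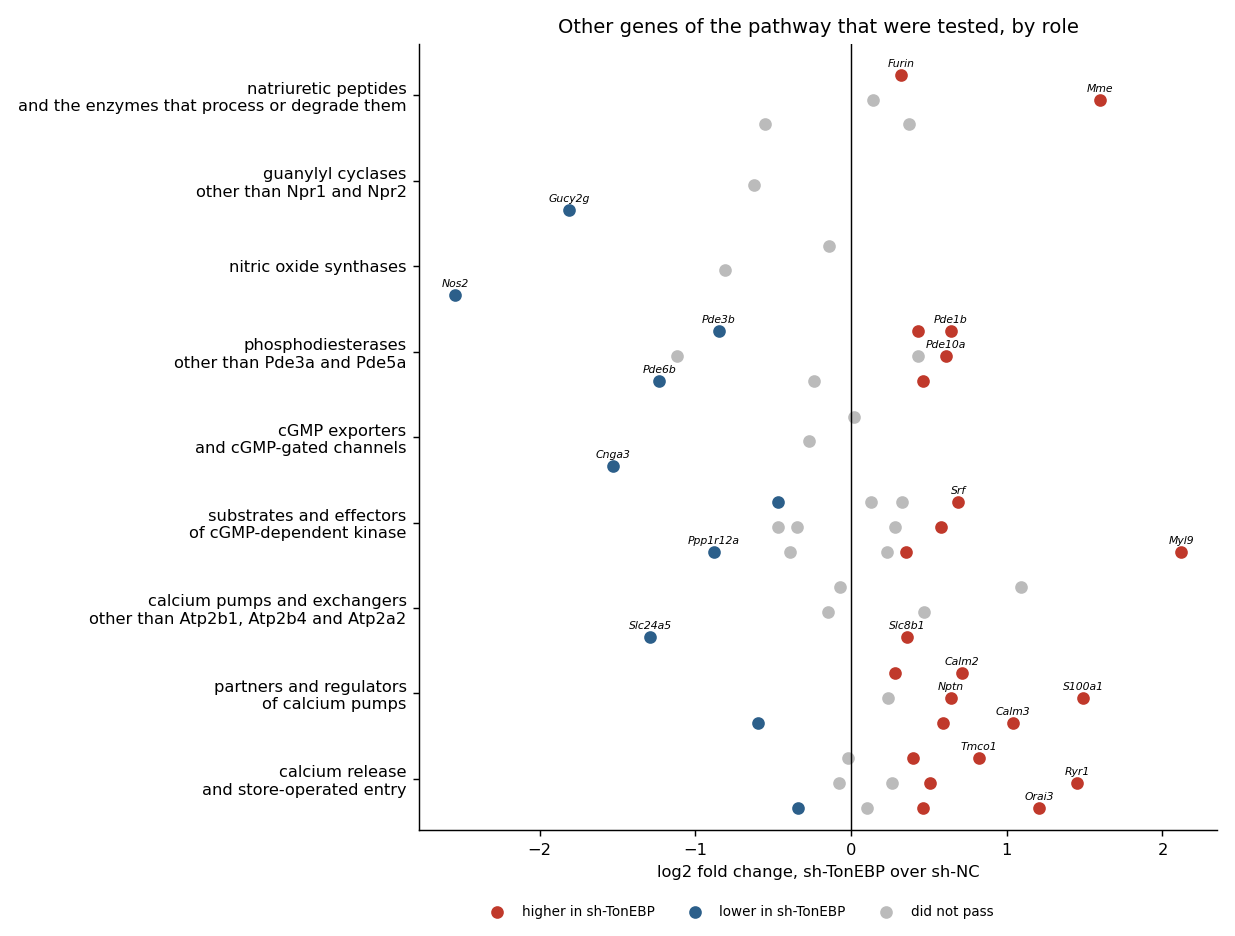
Log2 fold change of sh-TonEBP over sh-NC for the tested genes of the 9 pathway lists, 1 point per gene, in rows by role; red points were higher and blue points lower at an adjusted p under 0.05 in edgeR, and grey points did not pass. Of the 60 genes, 23 are red and 10 blue, with Nos2 at -2.54 and Myl9 at 2.12 the outermost points, and names stand beside the called genes given in the text.

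Downstream of the kinases, 13 of 19 listed substrates and effectors were tested, 4 were higher and 2 were lower, and their median log2 fold change was 0.23. Myl9, a regulatory light chain of myosin II, averaged 16 ± 3.18 CPM in sh-TonEBP and 3.67 ± 0.842 CPM in sh-NC (SD, n = 3 each; log2 fold change 2.12, SE 0.22, edgeR adjusted p = 1.87e-05). Its log2 fold change was 1.62 with the trend on length and GC content removed. Ppp1r12a, the targeting subunit of myosin phosphatase and a substrate of the kinase, was lower (log2 fold change -0.88, SE 0.14, edgeR adjusted p = 0.0003), and its value was -0.36 with the trend removed. Srf, a transcription factor for cytoskeletal genes, was higher (log2 fold change 0.69, SE 0.12), with a value of 0.27 once the trend was removed. Of 8 cGMP exporters and cGMP-gated channel genes, 3 were tested, and Cnga3, a channel subunit of cone photoreceptors, was lower at 27, 19 and 17 counts in sh-TonEBP and 61, 56 and 68 counts in sh-NC (log2 fold change -1.53, SE 0.27, edgeR adjusted p = 0.000624).

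Around the calcium pumps, 8 of 12 listed partners and regulators were tested, 6 were higher and 1 was lower, with a median log2 fold change of 0.62. S100a1, a calcium sensor that binds SERCA2 in heart muscle, averaged 66.4 ± 11.4 CPM in sh-TonEBP and 23.6 ± 4.95 CPM in sh-NC (SD, n = 3 each; log2 fold change 1.49, SE 0.17, edgeR adjusted p = 4.05e-05), with a value of 0.88 once the trend was removed. Calm3 (log2 fold change 1.04, SE 0.13) and Calm2 (log2 fold change 0.71, SE 0.12) encode calmodulin, the activator of the plasma membrane pumps, and both were higher, with Calm3 at 0.69 once the trend was removed. Nptn, a subunit of the plasma membrane pumps that was named after its values were seen, was higher with a log2 fold change of 0.64 (SE 0.11), and 1.15 once the trend was removed. Bsg, another listed partner, had a higher level, at a mean of 1170 CPM in sh-TonEBP and 998 CPM in sh-NC. Its groups overlapped, and it did not pass (log2 fold change 0.24, SE 0.13). The calmodulin genes are close in their coding sequence, so the split of reads among them is uncertain.

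Of 15 other calcium pumps and exchangers, 6 were tested, 1 was higher and 1 was lower. Slc24a5, an intracellular exchanger known from melanosomes, was lower at 21, 34 and 27 counts in sh-TonEBP and 54, 71 and 79 counts in sh-NC (log2 fold change -1.29, SE 0.28). Slc8b1, the mitochondrial exchanger, had a log2 fold change of 0.36 (SE 0.14), a call lost under 6 of 12 alternatives and a value of 0.07 with the trend removed. Of 13 genes of calcium release and store-operated entry, 11 were tested, 6 were higher and 1 was lower, with a median log2 fold change of 0.40. Ryr1, a calcium release channel of the endoplasmic reticulum, was higher at 91, 78 and 75 counts in sh-TonEBP and 30, 26 and 34 counts in sh-NC (log2 fold change 1.45, SE 0.23, edgeR adjusted p = 0.000339). Orai3, a channel of store-operated entry, had a log2 fold change of 1.21 (SE 0.14) and Tmco1, a channel that releases calcium when the store is overfilled, one of 0.82 (SE 0.12), and both were higher. With the trend removed, the values were 1.69 for Ryr1, 0.94 for Orai3 and 1.02 for Tmco1.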

How the data were processed

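RNA-seq of BV2 cells from the sh-TonEBP group (3 libraries) and the sh-NC group (3 libraries) was analysed from the table of raw read counts per gene that the authors deposited. The submitters' processing notes list the build GRCm39 and the tools HISAT2 2.0.5, cutadapt 1.15, DESeq 1.30.0 and HTSeq 0.9.1, with no roles. How strand and multiply mapped reads were treated is not stated in the sources used here. TonEBP is not named in the headers of the columns taken as sh-TonEBP, which were mapped by exclusion, as the series holds 2 shRNAs.

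Of 21899 identifiers, 21795 were matched to a symbol through GENCODE M21, from which exon lengths, transcript lengths and GC content were also taken, on the older build GRCm38. The chi-square of counts between replicates was at least 5.54 per degree of freedom, so no library was a repeat of another. Genes were kept by filterByExpr (11943 genes), scaled by TMM, and compared by edgeR 4.0.16 in R 4.3.3 through its quasi-likelihood test, with Benjamini-Hochberg adjustment over all of them and a threshold of 0.05. The common biological coefficient of variation was 0.135. The SE of a log2 fold change was derived from the statistic of this test, so it is not a measure of precision apart from the p-value. The p-values rest on the spread between the 3 libraries of a group, and that spread may be technical. The steps were tested on simulated data in which few genes changed and no trend on length or GC content was present. That setting differs from these data, so the simulation does not cover them. Counts of 0 were read as at most 3. Shares within a family used CPM per kb of exons.

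The 10 genes, the pathway lists and the marker lists were chosen with earlier results of these data known. In the text, each pathway list gives up to 3 genes with the largest absolute log2 fold change among those past the threshold, besides relatives of a member needed to place it. Nptn and Bsg were named outside this rule. The alternatives tried were a replicate block, leaving out each library in turn, the study's cutoffs, DESeq2 1.42.0, no filter, a minimum mean of 1 CPM, scaling by RLE or by library size only, and removal of a smooth trend on transcript length and GC content. Figures were drawn with matplotlib 3.10.9.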

Additional observations from a re-analysis of the deposited data

How the results depend on the processing

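Npr1 and Atp2b4 were called higher, and Prkg2 and Pde5a lower, in all 12 refits (another test, scaling, filter or block, or a library left out), with log2 fold changes of 1.25 to 1.35 for Npr1, 2.11 to 2.43 for Atp2b4, -1.72 to -1.32 for Prkg2 and -1.07 to -0.84 for Pde5a. The study's cutoffs ask for an absolute log2 fold change over 1 and an unadjusted p-value under 0.05. At these cutoffs Pde5a at -0.98 was not called, which left 2 of the 10 genes higher and 2 lower, with Npr2 among the 2 lower. Npr2, at -1.72 to -1.33, lost its call under 3 of 11 (adjusted p = 0.0726 with DESeq2, 0.0586 without the first sh-TonEBP library and 0.0889 without the third sh-NC library) and was not tested at a mean of at least 1 CPM. Atp2b1 (-0.21 to -0.05) and Atp2a2 (0.11 to 0.26) passed under none of the 12. Over the libraries left out in turn, 2488 to 3083 genes were called higher and 2578 to 3132 lower. Replicates with the same number did not deviate together (correlations of 0.18, 0.06 and -0.07), so they were not treated as pairs; with the replicate block 3147 genes were called higher and 3289 lower, and 2 of the 10 genes were called higher and 3 lower, as without it. Among the other pathway genes it gave 23 higher and 12 lower, against 10 lower without it, and Furin lost its call. Depth limits Npr2, which had 4 to 18 counts in a library, and Npr3, Prkg1 and Pde3a, where 0 counts in a library allow a level of up to 0.186 to 0.220 CPM. The cause of the trend on transcript length and GC content was not tested.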
